A study of Mus musculus with 10 samples.

Results

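Open chromatin was compared across the ventral tegmental area of adult mice, and the regions described here are those in which most libraries, but not every library, had a called peak. The deposited peak intervals of all 10 libraries on chromosomes 1 to 19 and X were pooled, intervals that overlapped by at least 1 bp were merged, and merged regions that held a peak of 5 to 9 libraries were kept. This gave 8704 member regions among 74565 merged regions (11.7%). The remainder comprised 5296 regions called in all 10 libraries, 11424 called in 2 to 4 and 49141 called in 1. The members were chosen by the peak calls themselves, so which libraries hold a region is a description, with no test.

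Bulk ATAC-seq was used, in which the Tn5 transposase cuts and tags DNA that is not wrapped tightly in nucleosomes. All mice carried ArcCreERT2 x Sun1/+ and were over postnatal day 60. ArcCreERT2 is a tamoxifen-dependent recombinase under the control of Arc, an immediate early gene of neurons, so the nuclear Sun1 tag depends on Arc being switched on while the recombinase is active. Nuclei carrying the tag were pulled out magnetically from all nuclei, and each library is labelled activated or non-activated. There were 4 groups: 2 activated and 2 non-activated libraries of standard-reared mice, and 3 of each class from mice exposed to early-life stress, called stressed below. Each library came from a single animal, the 10 libraries came from 6 animals, and 4 of these animals gave a library of each class. The pair of non-activated libraries from standard rearing came from females, and the other groups held both sexes. The cell types behind each class were not analysed here.

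Chromatin at promoters of widely used genes is commonly open in many cell types, whereas distal enhancers tend to be open in some cell types and closed in others. A bulk library averages over its nuclei. A region that is open in few nuclei therefore gives a low signal, and fewer open nuclei and a weaker opening in each nucleus cannot be told apart. Regions near the limit of detection are those most easily called in 1 library and missed in another. The sequences and neighbouring genes of the members were not analysed here, and regions are given by their position in mm39.

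The lists differed in length and depth. They held 7075 to 50771 peaks. The background solved from the peak values was 5.30 to 10.9 fragments per kb in the 5 activated libraries. It was 6.52 in stressed non-activated replicate 1 and 0.309 to 1.45 in the remaining 4 libraries. Those 4 also had longer fragments, with a smallest peak of 210 to 250 bp against 134 to 161 bp in the other 6, and are called the long-fragment libraries below. Stressed non-activated replicate 1 thus stood apart from its class. In the other 9 libraries every activated one is a short-fragment and every non-activated one a long-fragment library, so class and fragment type cannot be told apart there.

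The members were mostly regions that the activated libraries and stressed non-activated replicate 1 held and 3 of the 4 long-fragment libraries often lacked. Stressed non-activated replicate 1 had a peak in 8567 members (98.4%). The activated libraries followed, with 8287 (95.2%) and 7837 (90.0%) in standard-reared replicates 1 and 2 and with 6937 (79.7%), 8213 (94.4%) and 6823 (78.4%) in stressed replicates 1 to 3. Standard-reared non-activated replicate 2 held 7072 (81.2%), although it was one of the long-fragment libraries. The other 3 held far fewer. Stressed non-activated replicates 2 and 3 held 4878 (56.0%) and 2507 (28.8%), and standard-reared non-activated replicate 1 held 1489 (17.1%).

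**Figure D1:**
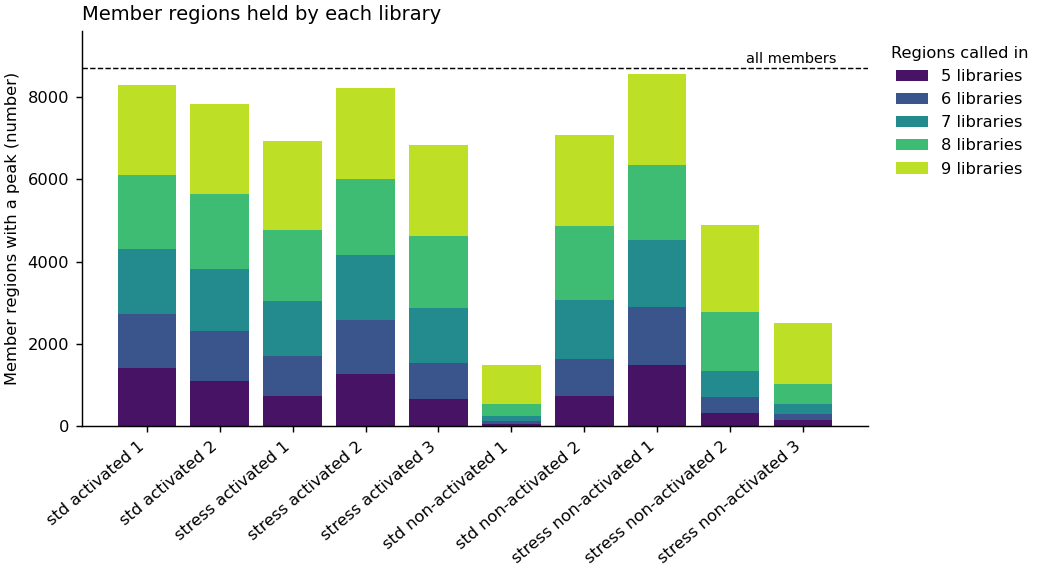
Number of member regions with a peak in each library (bars), stacked by how many libraries hold the region. The dashed line marks all 8704 members. On the axis, std is standard-reared and stress is stressed, followed by class and replicate. Standard-reared non-activated replicate 1 holds 1489 members and stressed non-activated replicate 1 holds 8567.

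Every activated library had a peak in 4962 members (57.0%), whereas every non-activated library had one in 151 (1.73%). The rule leaves out the 5296 regions called in all 10 libraries, which both classes hold throughout. These shares therefore apply to the members only, and the rule itself widens the contrast. Without stressed non-activated replicate 1, and with members redefined over the other 9 libraries, the shares were 68.7% and 2.16%. Without standard-reared non-activated replicate 1 they were 50.03% and 5.76%. Without stressed non-activated replicate 3 the second share was 3.37%. When every list was shortened to 7075 peaks (as many as the shortest holds), keeping those of highest -log10 q, they were 30.6% and 16.5%.

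A small number of sets of libraries covered much of the members. Of 637 possible sets of 5 to 9 libraries, 324 occurred, and the 4 commonest held 3910 members (44.9%). The commonest set, with 1261 members, lacked a peak in standard-reared non-activated replicate 1 alone. Next came 1107 members that lacked this library and stressed non-activated replicate 3, and 813 that also lacked stressed non-activated replicate 2. The fourth set held 729 members that lacked stressed non-activated replicate 3 alone. In these sets the missing libraries were long-fragment libraries. In all, 3724 members (42.8%) lacked exactly the shortest lists, in the order of list length.

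**Figure D2:**
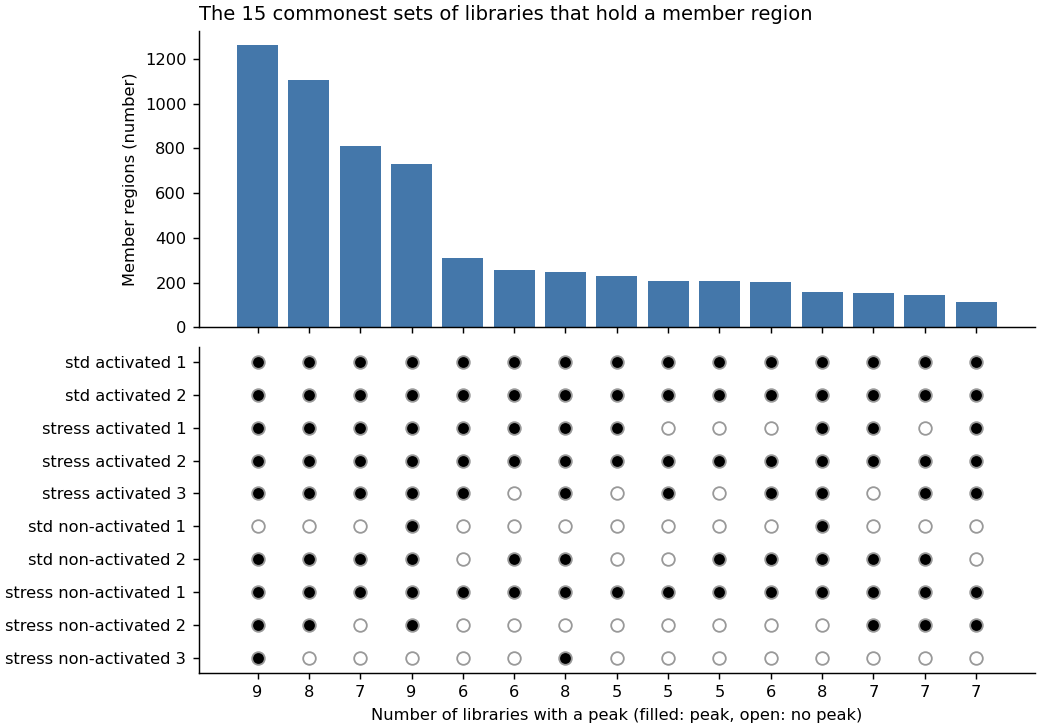
The 15 commonest sets of libraries among the members, as the number of members (bars) above a grid of libraries, where a filled circle is a peak and an open circle none. The number under each column is how many libraries hold the region. The first set, with 1261 members, lacks 1 library, and stressed non-activated replicate 1 is filled in every column.

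Long-fragment and short-fragment libraries were not equally often the ones lacking. All 6 short-fragment libraries held 4938 members (56.7%), of which 2097 had a peak in 3 long-fragment libraries, 1563 in 2, 966 in 1 and 312 in none. Among the members the reverse was rare. All 4 long-fragment libraries held 159 members (1.83%), and 117 of these lacked a single short-fragment library. The rule again leaves the 5296 regions called in all 10 libraries out of both counts. Regions called in every short-fragment and no long-fragment library made up 0.418% of all merged regions, and by construction all 312 of them are members.

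Members called in 9 libraries show which single library is most often the missing one. Of 2214 such members, 1261 lacked standard-reared non-activated replicate 1 and 729 lacked stressed non-activated replicate 3, together 89.9%. Stressed non-activated replicate 2 was missing from 105 and stressed activated replicate 1 from 53. Each of the other 6 was the missing one in 2 to 25 members, among them stressed non-activated replicate 1 in 4.

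Within animals, the class that lacked a member differed. In the animal of stressed replicate 1, 6847 members had a peak in both libraries, 90 in the activated library only and 1720 in the non-activated library only. The animal of stressed replicate 2 had 4691 in both, 3522 in the activated library only and 187 in the non-activated library only. For stressed replicate 3 these counts were 2115, 4708 and 392. The standard-reared animal that gave both classes (activated replicate 2 and non-activated replicate 1) had 1375, 6462 and 114. The activated library thus held more members in 3 of the 4 animals, and in each of these 3 it was the short-fragment library of the pair. The activated library had the higher background in all 4, including the animal of stressed replicate 1 (10.1 against 6.52 fragments per kb), where it held fewer members. In that animal it had fewer peaks (16368 against 50771). Its median pileup at regions called in all 10 libraries was lower there too (24 against 71 fragments). The part of depth in these counts was not tested.

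Rank within a list was read from the fold (the authors' value for how far the summit rises over the local background), as a percentile of all peaks in that library, where 100 is the highest fold. Percentiles from lists of different length show no change between libraries, so they are given for each list by itself. In the 2 longest lists the members ranked high, with a median percentile of 77.1 for standard-reared activated replicate 1 (39776 peaks) and 75.4 for stressed non-activated replicate 1 (50771 peaks). The other activated lists had medians of 43.5 to 51.0. The long-fragment lists had medians of 28.3 to 40, with the lowest in standard-reared non-activated replicate 1.

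Members stood between the regions called everywhere and those called in few libraries. In each of the 10 lists their median percentile lay below that of regions called in all 10 libraries (60.3 to 90.7) and above that of regions called in 2 to 4 libraries (15.6 to 43.1). The median fold of members was 4.61 to 9.06 by library, with a median pileup of 25 fragments in standard-reared activated replicate 1, 34 in stressed non-activated replicate 1, 14 to 17 in the other activated libraries and 6 to 10 in the long-fragment libraries. The lowest pileup of any called peak was 6 or 7 in the short-fragment and 2 to 4 in the long-fragment libraries. Members that the long-fragment libraries held thus rested on few fragments, and the lack of a peak does not show closed chromatin.

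Rank also varied with the number of libraries among the members themselves. In stressed activated replicate 2 the median percentile was 33.6 for members called in 5 libraries and 67.6 for those called in 9, and in standard-reared non-activated replicate 2 it was 22.9 and 56.5. In standard-reared non-activated replicate 1 the corresponding values were 28.3 and 29.8, and it held only 45 of those called in 5. Just outside the rule, regions in 4 libraries ranked below members of 5 in 9 of the 10 lists, and regions in all 10 ranked above members of 9 in every list. The step from 9 to 10 was widest in stressed non-activated replicate 3 (36.8 and 68.6) and standard-reared non-activated replicate 1 (29.8 and 60.3). In stressed activated replicate 2 the median percentile was 29.2 for regions in 4 libraries, just outside, and 82.8 for regions in all 10. For stressed non-activated replicate 1 it took values of 52.9 in 4, 60.5 in 5, 84.8 in 9 and 90.7 in all 10.

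**Figure D3:**
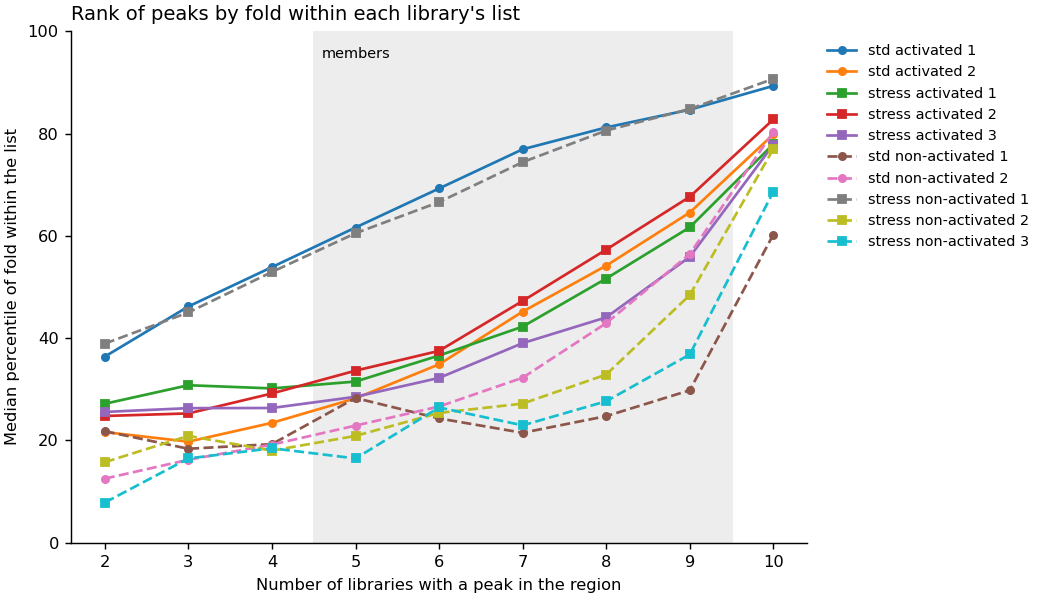
Median percentile of fold within each library's own list (vertical axis) against the number of libraries with a peak in the region (horizontal axis); solid lines are activated and dashed lines non-activated libraries, circles standard-reared (std) and squares stressed (stress). The grey band marks the members. The 2 longest lists lie highest, from 61.6 and 60.5 at 5 libraries to 84.7 and 84.8 at 9.

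A single member could rank differently from list to list. The median member reached percentile 82.2 in its best list and 14.5 in its weakest, a median range of 61.5 percentile points. The lists differ in length, and their median member percentile ran from 28.3 to 77.1. The range and the counts that follow therefore also hold differences between lists. Only 324 members (3.72%) were above the middle of the list in every library that held them, and 575 (6.61%) were below the middle in every one. Across members held by both libraries of a pair, the Spearman correlation of fold ranged from 0.0475 to 0.644 over the 45 pairs, with a median of 0.312. These correlations are across regions within the same libraries, which are not independent replicates, and member peaks of the long-fragment libraries had median pileups of 6 to 10.

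Members that a library lacked ranked lower in the 2 longest lists than members it held. For stressed activated replicate 3, the median percentile in stressed non-activated replicate 1 was 78.2 for the 6735 members held by both and 63.55 for the 1832 that replicate 3 lacked. For standard-reared non-activated replicate 1 the gap was smaller, 81.3 for 1459 held and 74.3 for 7108 lacked.

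Few members lacked a peak in the longest list. There were 137 members without a peak in stressed non-activated replicate 1, of which 92 were called in 5 libraries, 24 in 6, 13 in 7, 4 in 8 and 4 in 9. Their median width was 449 bp, against 685 bp over all members. Stressed activated replicate 2 held 123 of the 137, and the other activated libraries held 88 to 100 each. The 4 called in all 9 other libraries comprised a pair on chromosome 2, at 112421767 to 112422184 and at 137528949 to 137529630. The other pair was on chromosome 10, at 117508569 to 117508979 and at 79564066 to 79564499. At the first of these the fold was 8.06 in stressed activated replicate 2 and 3.79 to 6.67 in the other 8 libraries. The last one lay 0.571 kb from a region called in all 10 libraries. These 4 were chosen after their values were seen.

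Merged members had a median width of 685 bp (quartiles 523 and 880 bp) and covered 6.37 Mb. The widths ran from 194 to 2697 bp. Regions called in all 10 libraries were wider (median 928 bp) and those in 2 to 4 libraries narrower (374 bp). Width grew with the number of libraries merged, from a median of 560 bp for members of 5 libraries to 782 bp for members of 9, with 473 bp in 4 libraries just outside the rule. A merged interval can only widen as intervals are added, so this order is partly set by construction.

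Single peaks within a list showed the same order without that construction. In stressed activated replicate 2 the median peak width was 372 bp at members, 657 bp at regions called in all 10 libraries and 208 bp at those called in 2 to 4. In stressed non-activated replicate 3 the values were 269, 407 and 241 bp, the last equal to the smallest peak of the list. There, 35.7% of member peaks had the smallest width the list allows, as did 25.9% in standard-reared non-activated replicate 1, against 0.77% to 5.36% in the short-fragment libraries. Since the smallest width follows the fragment length, peak widths were not compared between libraries.

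**Figure D4:**
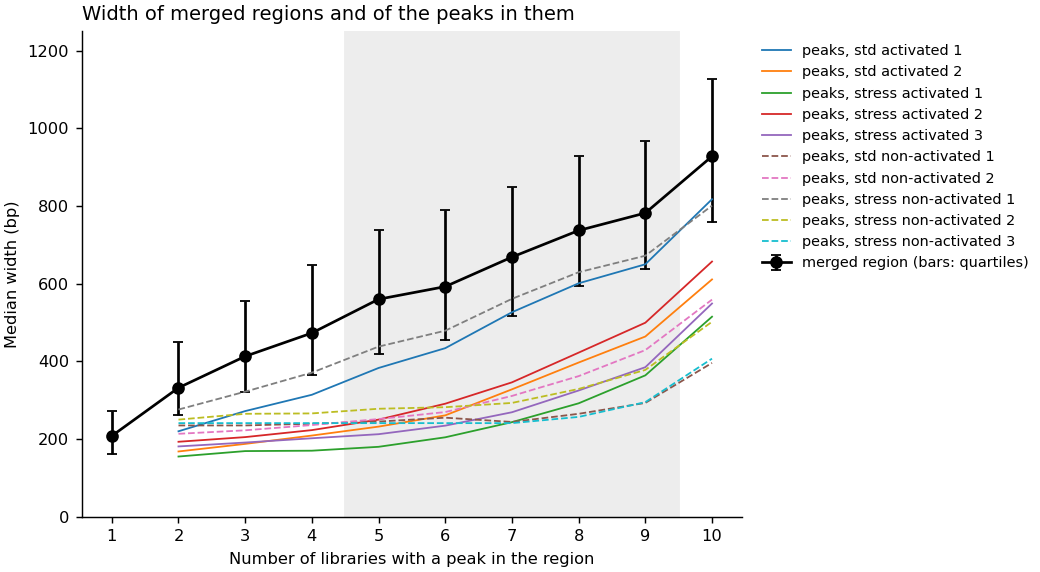
Median width of merged regions (black, with quartiles as bars) and median width of single peaks in each library (coloured; solid for activated, dashed for non-activated, std for standard-reared, stress for stressed) against the number of libraries with a peak. The grey band marks the members. Merged members go from 560 bp at 5 libraries to 782 bp at 9, and each library's peaks are wider at 9 than at 5.

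Several summits within 1 peak were common at members in the 2 longest lists, at 43.4% of held members in standard-reared activated replicate 1 and 37.6% in stressed non-activated replicate 1. The share was 10.5% to 16.8% in the other activated libraries and 0.12% to 2.62% in the long-fragment libraries. At regions called in all 10 libraries it was higher in each list, up to 65.3%.

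Most summits of different libraries lay close together within a member. Intervals had to overlap to be merged, so this closeness is partly set by construction. A library's strongest summit lay a median of 31 bp from the member's median summit over the libraries that held it, and 82.2% of summits lay within 100 bp. For regions called in all 10 libraries these values were 25.5 bp and 88.1%. From the first to the last summit, members spanned a median of 192 bp, or 29.65% of their width. Regions called in all 10 libraries spanned 167.5 bp, or 18.9%. Between pairs of libraries the median distance of summits at shared members ranged from 42 to 78 bp. Of the 62610 combinations of a member and a library that held it, 6.05% had more than 1 separate peak of that library in the region.

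Summits were spread out in the 5 widest members, over 509 to 1842 bp. The widest, on chromosome 17 (5044348 to 5047044, 2697 bp), was called in 8 libraries with folds of 3.51 to 4.99, and its summits spanned 1652 bp. The next, on chromosome 3 (58321924 to 58324567), was called in 9 libraries and its summits spanned 1842 bp. Against this, the narrowest member, on chromosome 15 (74958494 to 74958687, 194 bp), had summits within 14 bp in its 5 libraries. These members were picked by width, which limits how far summits can lie apart, so the contrast is partly set by construction.

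Members lay a median of 77.8 kb from the nearest region called in all 10 libraries. Regions called in 2 to 4 libraries lay 98.5 kb away, those called in 1 lay 127.2 kb away, and regions called in all 10 lay 70.6 kb from another of their kind. A region called in all 10 libraries was within 50 kb of 37.9% of members (exact Clopper-Pearson 95% interval 36.9 to 38.9%, counting error only) and within 10 kb of 8.25%. For regions called in all 10 libraries, the shares with another such region in these windows were 38.8% and 5.21%. They were 32.0% and 7.22% for regions in 2 to 4 libraries, and 26.5% and 5.06% for those in 1. Requiring a library's peaks to cover at least 50% of the merged region, which leaves fewer regions called everywhere, lowered the 50 kb share of members to 8.65%. Only 317 members (3.64%) had another member or a region called in all libraries within 1 kb, so most members had no such neighbour.

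X regions made up a larger share of the members than of the regions called in all 10 libraries. The X chromosome held 290 members and 88 regions called in all 10 libraries. Of its regions called in 5 or more libraries, 76.7% thus lacked a peak in at least 1 library. On the autosomes this share was 61.8% (8414 of 13622), and the highest autosome was chromosome 13 with 65.95%. X regions made up 1.66% of regions in all 10 libraries, 3.03% of members in 9, 3.04% in 8, 3.25% in 7, 3.12% in 6 and 4.38% in 5. Outside the rule the X share was lower, at 2.50% of regions in 4 libraries, 2.38% in 3, 1.76% in 2 and 1.11% in 1. The X share stayed above the autosomal share in each setting that kept X, for example 78.7% against 57.2% at equal list length and 71.5% against 57.3% without stressed non-activated replicate 1. These shares come from the calls that chose the members. Neighbouring regions and shared libraries make the counts dependent, and no test over regions was made.

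**Figure D5:**
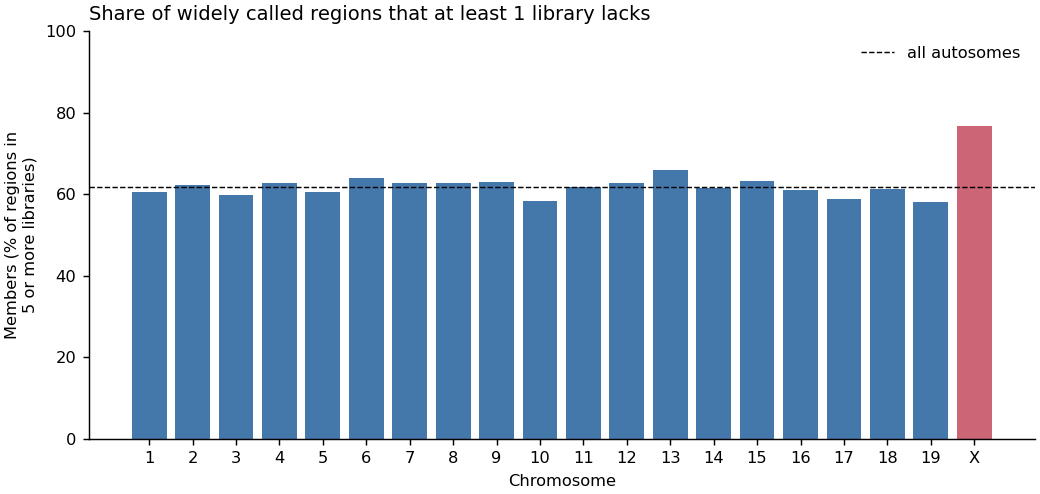
Members as a percentage of all regions called in 5 or more libraries, for each chromosome (bars, with X in red), with the dashed line at the autosomal share of 61.8%. X stands at 76.7% and the autosomes lie between 58.2% and 65.95%.

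Libraries of both sexes held the X members. Male mice have 1 X chromosome per cell and females have 2, of which 1 is largely silenced. Stressed non-activated replicate 1 (male) held 99.3% of the X members and 98.4% of the autosomal ones. Standard-reared activated replicates 1 (male) and 2 (female) held 97.2% and 94.8% of the X members, and stressed activated replicates 2 (male) and 3 (female) held 92.4% and 77.9%. Standard-reared non-activated replicates 1 and 2 (both female) held 15.5% and 75.5% of them. Stressed non-activated replicates 2 (male) and 3 (female) held 53.1% and 28.6%. Set against the autosomal members, the largest shortfall was in stressed activated replicate 1 (male), with 67.9% of the X members against 80.1% of the autosomal ones. Among the members a library held, X regions made up 2.84% to 3.40% in the 5 male and 3.02% to 3.51% in the 5 female libraries. The 5 libraries of each sex came from 3 animals, and the ranges overlapped. Male minus female was -0.0453 points over libraries and 0.0133 points when averaged by animal.

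Held X members ranked above held autosomal members in 4 of the 5 male and 2 of the 5 female libraries. The median percentile of X members minus that of autosomal members was 4.08, 8.90, 9.21, 8.90 and -1.33 points in the male libraries (standard-reared activated replicate 1, stressed activated replicates 1 and 2, stressed non-activated replicates 1 and 2). In the female libraries it was 0.62, 3.62, 0, -1.78 and -4.07 points (standard-reared activated replicate 2, stressed activated replicate 3, standard-reared non-activated replicates 1 and 2, stressed non-activated replicate 3). Male minus female was 6.28 points over libraries and 6.21 points averaged by animal (3 of each sex), but -0.48 points at equal list length. Regions called in all 10 libraries gave -6.26 to 5.70 points in male and -9.23 to -0.71 points in female libraries, a male minus female difference of 6.33, beside 6.28 for the members. Both of the longest lists were from males, and ranks from lists of different length are set side by side here as a description.

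The title of the series concerns open chromatin in cells activated by early-life stress, and the contrasts between classes and rearing bear on it. The measure compared was the percentage of the members held by a library that lie within 50 kb of a region called in all 10 libraries. Which members a library holds and which regions all 10 hold both come from the calls that chose the members, so the values are a description, with no test. It was 37.8% and 38.3% in the standard-reared activated libraries and 37.4%, 37.6% and 37.0% in the stressed activated ones. In the non-activated libraries it was 40.1% and 38.8% (standard-reared) and 38.0%, 39.3% and 41.6% (stressed). Only standard-reared activated replicate 2 lay above the lowest non-activated library, stressed non-activated replicate 1.

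Activated libraries averaged 37.6% ± 0.49 and non-activated libraries 39.6% ± 1.36 (SD, n = 5 each), a difference of -1.96 points. In stressed mice it was -2.33 points (3 against 3) and in standard-reared mice -1.39 points (2 against 2). Within the 4 animals with both classes the mean difference was -2.20 points. The libraries also differed in which members they held. Members called in 9 libraries made up 25.8 to 32.1% of those held in 7 libraries, but 43.2%, 59.2% and 64.0% in stressed non-activated replicates 2 and 3 and standard-reared non-activated replicate 1, the 3 libraries with the highest values. Over all members, 37.55%, 35.2%, 37.1%, 37.7% and 40.7% of those called in 5, 6, 7, 8 and 9 libraries lay within the window. The part of this make-up in the class difference was not tested.

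Rearing gave smaller differences. Stressed minus standard-reared was -0.75 points in activated libraries (37.3% ± 0.30, n = 3, against 38.1% ± 0.32, n = 2). It was 0.19 points in non-activated libraries (39.6% ± 1.80, n = 3, against 39.5% ± 0.91, n = 2), less than the spread within either group. At equal list length the difference in activated libraries turned to 0.65 points. Without standard-reared non-activated replicate 2 or stressed non-activated replicate 3, the difference in non-activated libraries turned to -0.84 or -2.49 points.

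Members that separated all activated from all non-activated libraries were few. A peak in all 5 activated and no non-activated library was found in 7 members. This pattern occurred in 0.00939% of all merged regions, which are the same 7, since a region held by exactly 5 libraries is always a member. The reverse pattern occurred in 0 members and 0% of all regions. Since the rule and this count use the same calls, nothing is read from the size of these shares.

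Most of the 7 regions ranked low in at least 1 library. The one whose weakest rank was highest lay near the start of chromosome 14 (3050787 to 3051004), with folds of 8.34 and 7.20 in standard-reared and 7.56, 7.13 and 7.04 in stressed activated libraries, and percentiles from 69.5 to 92.7. It was also the second narrowest of all members, at 218 bp, with summits within 21 bp. The other 6 had folds of 3.01 to 7.76, and their weakest percentile ranged from 5.57 to 33.2. Of these, the region on chromosome 13 (83880394 to 83880806) lay 0.742 kb from a region called in all 10 libraries.

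In stressed mice, 14 members (0.161% of members) had a peak in all 3 activated and no non-activated library, and 10 (0.115%) showed the reverse. Among all merged regions these patterns occurred in 0.059% and 0.0241%. In standard-reared mice the counts were 1272 (14.6% of members) and 36 (0.414%), beside 3.72% and 0.0577% of all regions. Both activated libraries there were deeper by background than both non-activated ones. Of the 1272 members, 1249 also had a peak in stressed non-activated replicate 1, as did 30 of the 36. Among activated libraries, 53 members (0.609%) had a peak in each stressed library and in no standard-reared one, and 37 (0.425%) showed the opposite. Over all regions the shares were 0.125% and 1.3%. The non-activated libraries gave 75 (0.862% of members, 0.122% of all regions) and 3 (0.0345% and 0.0107%). Since the rule and these counts use the same calls, nothing is read from the size of the shares. Held by all 6 stressed and no standard-reared library, or by all 4 standard-reared and no stressed library, were 0 members each (0% of all regions). By sex, 25 members (0.287% of members, 0.0335% of all regions) were held by all 5 male and no female library. All 5 female and no male library held 0 (0%).

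The members closest to the reverse of the activation pattern had a peak in all 5 non-activated libraries and few activated ones. On chromosome 11 (115847271 to 115847787) a member was called in every non-activated library, with folds of 5.58 and 8.41 in standard-reared and 4.49, 5.52 and 5.15 in stressed libraries, and in stressed activated replicate 2 alone among the activated ones (4.46). A member on chromosome 9 (57508690 to 57509068) was held likewise with standard-reared activated replicate 2 as the only activated library (5.09). On chromosome 19 (5896445 to 5897238) stressed activated replicate 1 was the only one, at a fold of 2.95 and percentile 1.53. In all, 23 members were held by a single activated library. All 4 long-fragment and a single short-fragment library held 1 member, on the X chromosome (165966579 to 165966877), with folds of 3.51 to 5.00.

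Of the 5 members held by all 4 standard-reared and the fewest stressed libraries, 4 lay on the X chromosome, 3 of them close together (73411486 to 73412404, 74425819 to 74426323 and 74772071 to 74772538). The one at 74772071 had folds of 3.79 and 4.29 in the standard-reared activated libraries, 5.27 and 4.14 in the non-activated ones and 4.75 in stressed activated replicate 2, and no peak in the other 5 stressed libraries. The only autosomal one, on chromosome 16 (21446036 to 21446428), was held by the same 5 libraries. Of the 4 standard-reared libraries 3 were from females, whereas 4 of the 6 stressed ones were from males, and the part of sex was not tested.

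Each of the 5 members held by all 6 stressed and the fewest standard-reared libraries was called in 1 standard-reared library, and they were chosen after their values were seen. The one with the highest weakest rank lay on chromosome 6 (88507275 to 88507663). Its folds were 4.499, 6.90 and 5.53 in the stressed activated and 5.56, 6.79 and 5.99 in the stressed non-activated libraries, and standard-reared activated replicate 1 had 3.53. A member on chromosome 13 (30437480 to 30438247) had folds of 4.12 to 8.20 in the stressed libraries and 5.90 in standard-reared non-activated replicate 2. Standard-reared non-activated replicate 1, which lacked all 5, held 17.1% of all members.

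Some members were strong wherever they were called. By the lowest percentile over the libraries that held it, the first of the members called in 9 libraries was on chromosome 18 and lacked only stressed non-activated replicate 3. The second, on chromosome 10 (19783014 to 19783535), lacked the same library and had a percentile of at least 83.4 in the other 9. Its folds were 12.6 and 9.41 in standard-reared activated, 8.40, 10.8 and 8.04 in stressed activated, 8.31 and 12.8 in standard-reared non-activated and 12.1 and 10.5 in stressed non-activated replicates 1 and 2. The third, also on chromosome 10 (29189037 to 29189711), had folds of 7.61 to 18.4 and again lacked only that library.

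Further members of this kind lacked only standard-reared non-activated replicate 1. Their positions were chromosome 11 (45845945 to 45846449), chromosome 4 (155708846 to 155709685), chromosome 19 (60568844 to 60569815), the X chromosome (100317439 to 100318009) and chromosome 15 (76395681 to 76396483). The X member had folds of 15.2 in standard-reared non-activated replicate 2 and 19.5 in stressed non-activated replicate 1, and 6.68 to 9.82 in the other 7 libraries. The missing library was 1 of the 2 that held the fewest members in each of the 10 members ranked highest by this rule. Over all members called in 9 libraries, 89.9% lacked 1 of these 2, so nothing particular to the strongest members is read from this.

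When each list was shortened to 7075 peaks, 1882 members (21.6%) still had a peak in 5 to 9 libraries, 2498 (28.7%) in 2 to 4, 1729 (19.9%) in 1 and 2595 (29.8%) in none. Standard-reared activated replicate 1 then held 30.8% of the members and stressed non-activated replicate 1 held 24.6%, and the range over all libraries narrowed to 17.1 to 30.8%. Merging the shortened lists afresh gave 4023 regions of 5 to 9 libraries. With a -log10 q of at least 5 in place of the deposited limit, 4308 members (49.5%) kept a peak in 5 to 9 libraries and 100 (1.15%) kept none.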

How the data were processed

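Peak lists of 10 bulk ATAC-seq libraries (4 groups of 2 or 3) were used. The authors' deposited lists were made, per the submitters' processing notes, with MACS2 2.2.9.1, SAMtools 1.13, R 4.4.2, Bowtie2 2.4.5 and fastp 0.23.4 on mm39; the notes give these no role. Peaks were called per library. For the caller's settings, shift of reads and removal of duplicates, nothing is stated in the labels or list headers used here, and each could change which regions reach 5 libraries. In the deposited lists, the fold is a linear ratio, p and q are -log10 values, and the score is 10 times -log10 q.

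Entries repeated for several summits were counted once, with the highest fold. Pileup and background were solved from fold and p with a pseudocount of 1 (largest relative misfit 8e-06). Background over the smallest peak width gave fragments per kb. Differences between groups were taken over 1 value per library. Exact permutation tests of 7 such differences were computed, but all run on the members a library holds, which the calls behind the rule set, so no p-value is given. Same-numbered stressed libraries share an animal, by the library names. Standard-reared numbers do not pair.

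The members and lists were chosen with earlier results of these data known. The regions named follow a written rule, apart from those marked otherwise: top of 9-library members by weakest rank, complete or nearest separation of classes or rearing, and widest and narrowest. Planned results on gene starts, gene lists and sequences need an annotation or genome of mm39. The table at hand is of another build, so they were not run, and distance to regions called in all 10 libraries took their place. That measure and the X chromosome tests were chosen after seeing the data, and the 50 kb window after shares at several windows had been seen. Merging, distances and pileups were tested on simulated data. Matplotlib 3.10.9, SciPy 1.17.1, Python 3.11.15, pandas 2.3.3 and NumPy 2.4.6 were used.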

Additional observations from a re-analysis of the deposited data

Results flagged for a closer look

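Over 12 measures of the members, each in the 5 activated and the 5 non-activated libraries, 24 sets of libraries were examined for 1 value distant from the rest. Were the sets independent, chance would mark about 1 in 20. In all, 9 values were marked, all in the libraries with the 2 longest lists. The measures share the same libraries and the members chosen by the calls, so this count is not set against that rate.

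Standard-reared activated replicate 1 stood apart from the other activated libraries in 4 measures. Members made up 22.4% of its list (next lowest 45.4%), the median percentile of its member peaks was 77.1 (next 51.0), their median pileup was 25 fragments (next 17), and 43.4% of them had several summits (next 16.8%).

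Stressed non-activated replicate 1 stood apart from the other non-activated libraries in 5 measures. The median percentile of its member peaks was 75.4 (next 40), their median fold 9.06 (next 6.18), their median pileup 34 fragments (next 10), their median width 580 bp (next 345 bp) and the share with several summits 37.6% (next 2.62%).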

How the results depend on the processing

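A list without a peak does not show that a region is closed, and the part of depth in these counts was not tested. With a -log10 q of at least 5, the share of members within 50 kb of a region called in all libraries was 23.6%, the median width 778 bp, the member share of widely called regions 82.8% on X and 69.8% on autosomes, the members held by every activated library 50.4% and by every non-activated library 2.83%, and the sex difference in X share turned to 0.0453 points. At equal list length there were 4023 members, with 24.3%, 779 bp, 57.2% on autosomes, 30.6% and 16.5%, in the same order. There, the rearing difference in activated libraries turned to 0.65, the sex difference in X share to 0.00527 and in X rank to -0.48 points. With peaks over at least 50% of the region, the values were 8.65%, 785 bp, 96.6%, 90.5%, 42.7% and 3.57%, and the sex difference in X share turned to 0.00124. Merging across 100 bp gave a width of 695 bp. Windows of 10 and 100 kb gave 8.25% and 57.3% and turned the rearing difference in non-activated libraries to -0.0237 and -0.0926. Averaged by animal, the sex difference in X share turned to 0.0133. The class difference in the share near a region called in all libraries kept its sign but changed in size. It was -0.18 at 10 kb, -0.83 at the stricter q, -0.89 at 50% cover and -1.64 at equal list length. On autosomes alone it was -1.97, merging across 100 bp -1.98 and at 100 kb -2.40. The sex difference in X rank was 3.34 at the stricter q, 5.265 at 50% cover, 6.24 merging across 100 bp and 2.25 ranked by -log10 p.

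Leaving out each library in turn gave 7215 to 8281 members, 37.8 to 42.9% near such a region, widths of 651 to 698 bp, member shares of 63.7 to 75.4% on X and 52.7 to 60.1% on autosomes, and 50.03 to 72.7% and 1.24 to 5.76% held by every activated and every non-activated library. The difference in the share near such a region ranged from -2.57 to -1.83 between classes, -3.10 to -1.64 in stressed and -3.35 to -0.72 in standard-reared mice. It ranged from -1.05 to -0.49 for rearing in activated and -2.49 to 1.33 in non-activated libraries. Sex differences were -0.19 to 0.0413 points in X share (turned without stressed activated replicate 1 or either standard-reared non-activated library) and 4.15 to 8.16 in X rank. With the replicate block by animal, the class difference was -2.20 and that in stressed mice -2.33, the same direction as without it. The planned results on gene starts were not run.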
